A study of Mus musculus with 3 samples.

Results

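Genes for collagen chains, laminin chains and the proteins joined to them in basement membranes were followed across the cells of mouse pancreatic islets. The genes were chosen by symbol: every collagen chain (Col, a number, the letter a and a number), every gene whose symbol starts with Lama, Lamb or Lamc, and Nid1, Nid2, Hspg2, Fn1 and Sparc. A gene was kept if it had at least 20 unique molecular identifiers (UMIs, each counting 1 captured transcript) in total over the 3 libraries. Of 60 genes with such a symbol among 31053 features, 51 reached that minimum. Col19a1 and Col23a1, with 31 and 34 UMIs, were just inside it, and Col11a1, with 16, was just outside. The other 8 genes left out (Col9a1, Col24a1, Col10a1, Col6a4, Col22a1, Col2a1, Lama1 and Col17a1) had 0 to 6 UMIs. The islets came from 3 female NOD-SCID mice, non-diabetic and 10 to 11 weeks old, with 1 library of single-cell 3′ RNA sequencing (10x Genomics) from each mouse and no pooling of animals. NOD-SCID mice carry the scid mutation on the non-obese diabetic background and lack mature T and B cells. Every library has the same strain, sex, age range and disease state, so each comparison is between cell classes of the same mice.

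A basement membrane is a thin sheet of matrix on which epithelial and endothelial cells rest and which wraps muscle cells, pericytes and Schwann cells. Its scaffold is a network of type IV collagen, in which chains join in fixed combinations of 3, and a network of laminin, in which each molecule has 1 alpha, 1 beta and 1 gamma chain. Nidogens and the heparan sulfate proteoglycan perlecan, the product of Hspg2, link the networks. Fibrillar collagens such as types I, III and V build the interstitial matrix around vessels and ducts, type VI collagen forms beaded filaments next to basement membranes, fibronectin (Fn1) is a cell-binding matrix glycoprotein, and Sparc encodes a collagen-binding matricellular protein. In mouse islets, endothelial cells are known as a main source of the vascular basement membrane that beta cells contact.

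The libraries held 6005, 4444 and 5713 barcodes and 32389170, 48076507 and 57849496 UMIs in mice 1, 2 and 3, in which order every group of 3 values below is given. After filtering, 7173 cells were kept, 1090, 2609 and 3474 per mouse, and they held 65844 of the 73758 UMIs of the 51 genes. Cells were clustered on marker genes, none of which was a collagen, laminin or other gene followed here, and a class is called by its markers ("endothelial-like"). Clusters left unnamed held 1617 of the kept cells (349, 836 and 432). They gave 1434 UMIs of the 51 genes (266, 915 and 253) and stay in the totals of all shares below. The classes compared were endothelial-like (49, 83 and 242 cells), pericyte-like (15, 27 and 116), fibroblast-like (5, 16 and 44), Schwann-like (35, 7 and 39), duct-like (111, 187 and 142), alpha-like (162, 270 and 955), delta-like (89, 199 and 622) and beta-like (130, 292 and 400). Over the 3 mice together, all 12 endothelial, 12 pericyte, 12 fibroblast, 13 Schwann and 11 duct markers were detected in the class named for them. The cells were clustered and named on these same markers, so this is no separate check of the names. Detection alone did not set classes apart: all 12 endothelial markers were also detected in beta-like cells. Their sum was 159, 154 and 214 UMIs per 10000 in endothelial-like and 0.0739, 0.0675 and 0.116 in beta-like cells. The summed fibroblast markers were at 146, 89.3 and 198 UMIs per 10000 in fibroblast-like cells, and none of the 12 was detected in Schwann-like cells. The smallest groups, 5 fibroblast-like cells of mouse 1 and 7 Schwann-like cells of mouse 2, set the precision of those classes. Beta-cell markers made up 98.5, 3463 and 78.1 UMIs per 10000 in fibroblast-like cells and 1523, 727 and 151 in Schwann-like cells. By these, mouse 2 stood apart in the fibroblast-like and mouse 1 in the Schwann-like class. Alpha-cell markers made up 10.2, 12.5 and 310 in fibroblast-like cells, and gamma-cell markers 8.14, 14.4 and 799 in Schwann-like cells. Mouse 3 stood apart in both. The part these hormone-cell transcripts have in the levels of either class was not tested. Mice 1 and 2 shared 148 barcode sequences, 14 of them among kept cells in both, mice 1 and 3 shared 9 (2 kept), and mice 2 and 3 shared 13 (4 kept).

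Most UMIs of these genes came from few cells. Endothelial-like cells were 4.88% ± 1.92 of the kept cells (SD, n = 3 mice) and gave 41.5% ± 5.62 of the UMIs of the 51 genes. Their share was 40.3%, 47.6% and 36.6%. Pericyte-like cells gave 8.12% ± 1.49, with per-mouse shares of 9.81%, 7.54% and 7.01%. Fibroblast-like cells, 0.78% ± 0.429 of the cells, gave 22.1% ± 10.4, with 23%, 11.3% and 32%. The fibroblast share thus differed between mice by far more than the endothelial share, and the endothelial range lay above the fibroblast range. Schwann-like cells gave 6.22% ± 2.97 and duct-like cells 9.79% ± 2.69. The hormone cells were numerous and gave little: alpha-like cells, 17.6% ± 8.88 of the cells, gave 3.39% ± 0.71, delta-like cells gave 1.06% ± 0.149 and beta-like cells 3.23% ± 2.17. Sparc, the gene with the most UMIs, weighed on these shares: without it, endothelial-like cells gave 35.3%, fibroblast-like cells 26% and pericyte-like cells 8.04%. These are shares of captured transcripts and depend both on how many cells of a class were recovered and on how many transcripts each cell gave. The median depth was 9234, 5543 and 4288 UMIs in endothelial-like cells and 36023, 54743 and 31474 in beta-like cells.

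**Figure D1:**
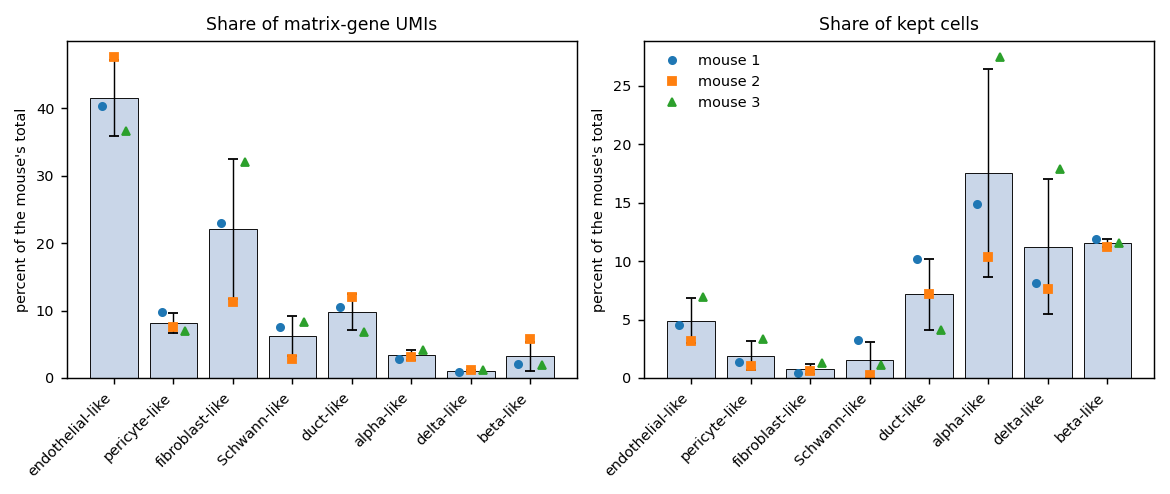
Share of the UMIs of the 51 genes in kept cells (left) and share of the kept cells (right) that each class gave, in percent of a mouse's total. Bars are means over 3 mice with SD, and points are mice; endothelial-like cells gave 36.6% to 47.6% of the UMIs in each mouse and fibroblast-like cells 11.3% to 32.0%.

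Counted per transcript, the fibroblast-like class was the richest in 2 of 3 mice. The 51 genes took 116, 112 and 127 UMIs per 10000 in endothelial-like cells, 91.8, 70.6 and 57.4 in pericyte-like cells and 421, 76.8 and 287 in fibroblast-like cells. Schwann-like cells had 55.1, 119 and 140.2 and duct-like cells 10.6, 8.35 and 13.2. The hormone cells were far lower, with 0.666, 0.626 and 0.791 UMIs per 10000 in alpha-like cells, 0.771, 0.637 and 0.695 in delta-like cells and 0.463, 0.452 and 0.58 in beta-like cells. In barcodes that held fewer than 500 genes, which carry mostly free RNA and failed cells, the 51 genes were 0.0105%, 0.0108% and 0.0377% of UMIs, above the share in each hormone class of the same mouse. With free RNA subtracted, 12 of the 40 genes tested differed between alpha-like and beta-like cells and 7 between delta-like and beta-like cells, beside 11 and 7 without the subtraction, where 33.6% and 30.3% of all 11762 genes tested were called. By mean level, the highest of the 8 classes was fibroblast-like for 23 of the 51 genes, endothelial-like for 8, pericyte-like for 7, Schwann-like for 6, duct-like for 5, and alpha-like (Col26a1) and beta-like (Col11a2) for 1 each. The highest class did not overlap the next in any mouse for all 8 endothelial genes, for 9 of the 23 fibroblast genes, 3 of the 7 pericyte genes, 2 of the 5 duct genes and 1 of the 6 Schwann genes. The same count over all genes was not made, so these counts describe the 51 genes without a background to set them against.

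**Figure D2:**
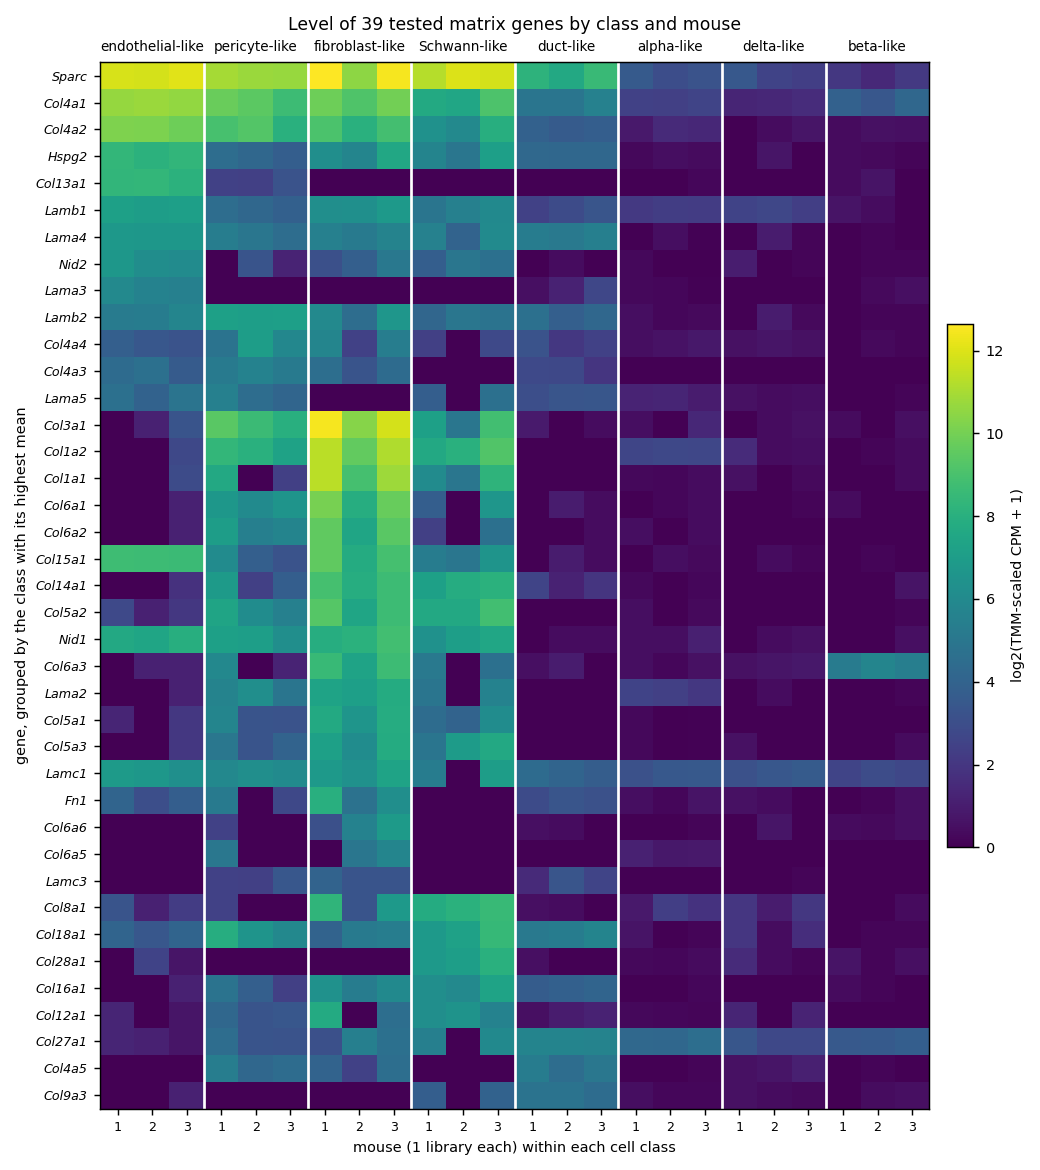
Level of 39 of the 40 tested genes (rows, grouped by the class with the highest mean) in each class and mouse (columns), as log2 of TMM-scaled CPM plus 1 by colour. The chains of collagens I, III, V and VI had their highest mean in the fibroblast-like columns, Col4a1, Col4a2, Col13a1, Lama3, Lama4, Lamb1, Nid2 and Hspg2 in the endothelial-like columns, and the hormone classes were dark for most genes.

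Levels below are TMM-scaled CPM of UMIs in the summed cells of a class in 1 mouse. One 3′ tag was counted per transcript, so levels are not divided by gene length. Tests are edgeR quasi-likelihood tests with mouse as a block, adjusted by Benjamini-Hochberg over all 11762 genes tested, and a gene is said to have been higher or lower where the adjusted p was under 0.05. Of the 51 genes, 40 passed the filter on low counts and were tested. A gene passes that filter through the class where it is high, so counts among the 40 are a description. Counts from alternative fits, such as those with a mouse left out or cells thinned, are a description too. They are given without the share of all genes called in the same fit. In medians over the 40 and over the lists below, a gene without UMIs in a compared class was set at its bound. The bound used a floor of 3 counts. Medians over all genes used the fitted differences alone. With fitted differences, the 40 had medians of -2.22 (endothelial minus pericyte), -2.05 (pericyte minus fibroblast), 0.22 (delta minus beta), 0.77 (alpha minus beta) and 6.90 (Schwann minus endocrine). Other comparisons were unchanged. "Endocrine" is the mean of the alpha-like, delta-like and beta-like classes.

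Type IV collagen has 6 chains, encoded as 3 pairs of neighbouring genes that point away from each other. In GRCm38, Col4a1 (ENSMUSG00000031502, chr8:11198423-11312826, minus strand) and Col4a2 (ENSMUSG00000031503, chr8:11312805-11449287, plus strand) overlap by 22 bases at their 5′ ends. Col4a4 (ENSMUSG00000067158, chr1:82448423-82586849, minus strand) and Col4a3 (ENSMUSG00000079465, chr1:82586921-82722059, plus strand) are 71 bases apart, and Col4a6 (ENSMUSG00000031273, chrX:141165403-141474076, minus strand) and Col4a5 (ENSMUSG00000031274, chrX:141475385-141689234, plus strand) are 1308 bases apart. The windows below, from 250 bases before to 50 bases after a RefSeq transcript start (GRCm38.p6), show the shared start region of the most abundant pair and the separate ones of the Col4a5 and Col4a6 pair, for which matching windows were found. Capitals mark each match of the letters GGGCGG (GC box) or CCAAT on either strand. None of the 4 windows held TATAAA on either strand.
Col4a1: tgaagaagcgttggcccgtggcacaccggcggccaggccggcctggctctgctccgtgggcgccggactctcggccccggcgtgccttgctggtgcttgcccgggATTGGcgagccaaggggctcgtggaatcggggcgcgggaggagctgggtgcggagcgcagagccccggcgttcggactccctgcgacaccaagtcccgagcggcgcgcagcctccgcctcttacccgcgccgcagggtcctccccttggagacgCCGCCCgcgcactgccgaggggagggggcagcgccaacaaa
Col4a2: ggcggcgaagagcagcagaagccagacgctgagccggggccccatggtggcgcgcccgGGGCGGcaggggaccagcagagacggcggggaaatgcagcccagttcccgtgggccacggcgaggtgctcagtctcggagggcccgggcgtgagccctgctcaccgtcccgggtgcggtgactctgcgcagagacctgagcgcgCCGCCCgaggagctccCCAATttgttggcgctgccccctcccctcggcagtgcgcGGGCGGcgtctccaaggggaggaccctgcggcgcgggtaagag
Col4a5: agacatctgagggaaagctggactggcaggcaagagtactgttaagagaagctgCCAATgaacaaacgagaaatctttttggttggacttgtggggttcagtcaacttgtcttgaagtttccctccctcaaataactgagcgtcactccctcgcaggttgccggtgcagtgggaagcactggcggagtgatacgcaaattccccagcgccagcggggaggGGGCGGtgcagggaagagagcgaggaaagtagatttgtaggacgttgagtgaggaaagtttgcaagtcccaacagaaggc
Col4a6: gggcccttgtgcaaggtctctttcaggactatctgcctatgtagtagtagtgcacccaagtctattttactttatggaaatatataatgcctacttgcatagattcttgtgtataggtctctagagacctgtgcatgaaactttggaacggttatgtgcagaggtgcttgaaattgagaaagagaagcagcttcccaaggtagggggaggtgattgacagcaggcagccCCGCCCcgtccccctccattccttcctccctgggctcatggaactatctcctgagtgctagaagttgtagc
The windows lie at chr8:11312777-11313076, minus strand, at chr8:11312555-11312854, plus strand, at chrX:141475169-141475468, plus strand, and at chrX:141474027-141474326, minus strand, in that order. The Col4a1 and Col4a2 windows share 78 bases on opposite strands. Their GC content was 74.0% and 73.7%, against 52.7% and 48.3% in the Col4a5 and Col4a6 windows. Over the 37 genes with a matching window, 25 held a GC box, against 35.7% of all 32851 windows, 11 held CCAAT, against 37.4%, and 3 held TATAAA, against 13.6%. A match describes letters in the window and no binding.

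Col4a1 and Col4a2, the chains of the type IV collagen found in nearly all basement membranes, were highest in endothelial-like cells. Col4a1 was at 1625, 1721 and 1568 CPM in endothelial-like cells, 872, 706 and 413 in pericyte-like cells, 944, 568 and 981 in fibroblast-like cells and 6.73, 5.27 and 8.25 in endocrine cells. The endothelial values lay above every value of the other classes, and endothelial-like cells held 65.5% of all Col4a1 UMIs. Col4a1 was higher in endothelial-like than in endocrine cells (log2 fold change 8.43, SE 0.22, edgeR adjusted p = 1.42e-44), and higher in endothelial-like than in pericyte-like cells (log2 fold change 1.31, SE 0.26, edgeR adjusted p = 3.85e-05). Col4a2 was at 1160.3, 1143 and 923 CPM in endothelial-like cells, 501, 609.9 and 264 in pericyte-like cells, 544, 262 and 471 in fibroblast-like cells and 0.364, 0.876 and 0.909 in endocrine cells, again highest in endothelial-like cells (log2 fold change 10.53, SE 0.26, edgeR adjusted p = 3.61e-29 for endothelial minus endocrine; log2 fold change 1.28, SE 0.26, edgeR adjusted p = 0.000225 for endothelial minus pericyte). The endothelial minus pericyte difference of Col4a2 missed the threshold with DESeq2 (adjusted p = 0.0576), and that of Col4a1 missed it after subtraction of free RNA at nearly the same size (log2 difference 1.30, edgeR adjusted p = 0.133). The pericyte and fibroblast ranges overlapped for both chains.

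The chains Col4a3 and Col4a4, which join with the Col4a5 chain in the collagen network known from kidney and lung, were low and had their highest mean in pericyte-like cells. Col4a3 was at 20.4, 24.2 and 11.5 CPM in endothelial-like cells, 35.8, 47.9 and 34.9 in pericyte-like cells, 22.6, 8.74 and 20.7 in fibroblast-like cells and 5.84, 5.75 and 2.88 in duct-like cells. It had 0 UMIs in Schwann-like, alpha-like, delta-like and beta-like cells alike. Against a floor of 3 counts over the endocrine cells, it was at least 334-fold higher in endothelial-like cells, at least 746-fold higher in pericyte-like cells, at least 358-fold in fibroblast-like cells and at least 93.5-fold in duct-like cells (edgeR adjusted p = 1.52e-19, 1.42e-20, 1.31e-13 and 4.63e-14). Col4a4 was at 13.1, 9.66 and 8.28 CPM in endothelial-like cells and 26.8, 131 and 57.3 in pericyte-like cells, with no overlap, and was lower in endothelial-like cells (log2 fold change -2.80, SE 0.45, edgeR adjusted p = 6.31e-07). Its mean was 71.6 CPM in pericyte-like and 32.3 in fibroblast-like cells, and the values of these 2 classes overlapped. Col4a5 and Col4a6 had another distribution. Col4a5 had 0 UMIs in endothelial-like and Schwann-like cells, 40.2, 17.4 and 21 CPM in pericyte-like cells and 38.2, 22.3 and 31 in duct-like cells, which held 78.5% of its UMIs. It was at least 24.6-fold lower in endothelial-like than in pericyte-like cells against the same floor (edgeR adjusted p = 5.39e-09). Col4a6, too low for the test, had 8 UMIs in pericyte-like cells, 36 in duct-like cells and 0 in the other 6 classes. Over the 8 class means, Pearson's r of log2 CPM was 0.98 between Col4a1 and Col4a2, 0.93 between Col4a3 and Col4a4 and 0.81 between Col4a5 and Col4a6, as a description of 8 points that share libraries.

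**Figure D3:**
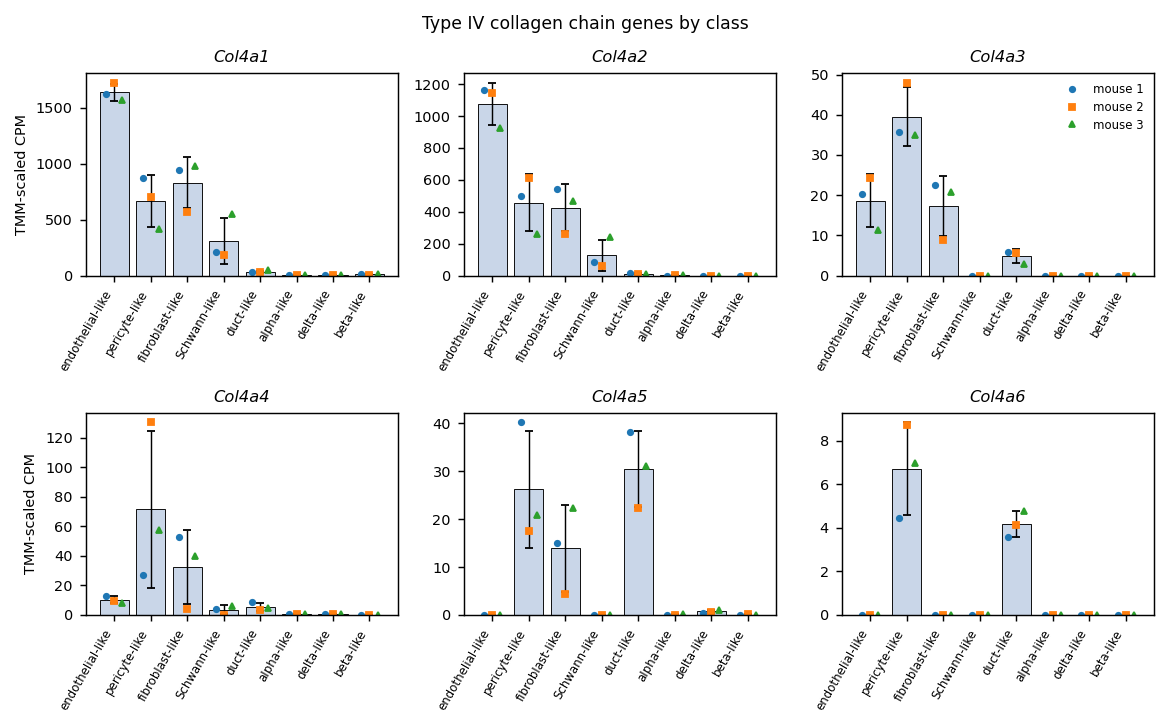
Levels of the 6 type IV collagen chain genes (TMM-scaled CPM, linear axes from 0) in the 8 classes; bars are means over 3 mice with SD, and points are mice. Col4a1 and Col4a2 were highest in endothelial-like cells, and Col4a5 and Col4a6 were present in pericyte-like and duct-like cells and at 0 in endothelial-like cells.

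In endothelial-like cells, 23 of the 40 genes tested were higher than in endocrine cells and 2 were lower, where 28.9% of the 11762 genes tested were higher and 27.9% lower, 56.8% in all. The median log2 difference of the 40 was 3.60, against -0.06 over all genes tested. The 3 largest calls with the same sign in every mouse and at least 20 CPM were Col15a1, Col13a1 and Col4a2. Perlecan, nidogens and laminin chains were among the other higher genes. Col15a1, a basement membrane collagen, was at 417, 411 and 399 CPM in endothelial-like cells, 762, 223 and 479 in fibroblast-like cells and 0, 0.269 and 0.121 in endocrine cells (log2 fold change 11.12, SE 0.31, edgeR adjusted p = 5.55e-23). The fibroblast values lay both above and below the endothelial ones. Col13a1, a transmembrane collagen, was at 322, 329.8 and 275 CPM in endothelial-like cells and 4.47, 4.36 and 8.38 in pericyte-like cells, and endothelial-like cells held 96.7% of its UMIs (log2 fold change 5.43, SE 0.34, edgeR adjusted p = 2.77e-20 for endothelial minus pericyte, but adjusted p = 0.358 with DESeq2). Hspg2 was at 329, 279 and 319.9 CPM in endothelial-like cells, 22.4, 17.4 and 12.6 in pericyte-like cells, 75.5, 52.4 and 191 in fibroblast-like cells and 0.162, 0.414 and 0.147 in endocrine cells. Every endothelial value was above every pericyte and fibroblast value (log2 fold change 10.26, SE 0.23, edgeR adjusted p = 4.81e-41 for endothelial minus endocrine; log2 fold change 4.42, SE 0.33, edgeR adjusted p = 2.03e-16 for endothelial minus pericyte). Sparc was at 3743, 3678 and 4269.6 CPM in endothelial-like cells and 8.12, 4.53 and 5.28 in endocrine cells (log2 fold change 9.59, SE 0.36, edgeR adjusted p = 4.84e-26). The log2 difference between endothelial-like and endocrine cells was 8.58 for Lama3, 5.91 for Lama5, 6.32 for Lamb1, 7.33 for Lamb2, 3.53 for Lamc1, 8.96 for Nid1 and 8.92 for Nid2, and each passed the test. Col27a1, a fibrillar collagen chain, was called to the other side, with 3 UMIs in endothelial-like cells against 868 in endocrine cells (ratio of endocrine to endothelial 15, with a 95% counting interval of 5.12 to 72.9).

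Of the laminin alpha chains, which carry the main cell-binding domains, Lama4, the alpha chain of vascular laminin, was the most abundant in endothelial-like cells. It was at 105, 103 and 103 CPM in endothelial-like cells, 40.2, 30.5 and 22.3 in pericyte-like cells, 38.2, 33.5 and 42.9 in duct-like cells and 0, 0.484 and 0.0618 in endocrine cells. Endothelial values did not overlap those of pericyte-like cells (log2 fold change 1.90, SE 0.29, edgeR adjusted p = 2e-07) or endocrine cells (log2 fold change 9.14, SE 0.26, edgeR adjusted p = 1.53e-42). Lama5, the other alpha chain of vascular laminin, was at 24.8, 14.5 and 28.7 CPM in endothelial-like cells and 44.7, 21.8 and 16.8 in pericyte-like cells, with overlapping ranges, and had 0 UMIs in fibroblast-like cells. Lama3, the alpha chain of epithelial laminin, was at 61.2, 48.3 and 44.6 CPM in endothelial-like cells and 0.449, 1.28 and 5.44 in duct-like cells. It had 152 UMIs in endothelial-like cells and 0 in pericyte-like, fibroblast-like and Schwann-like cells, at least 19.2-fold higher in endothelial-like than in pericyte-like cells (edgeR adjusted p = 3.64e-07; adjusted p = 0.3 with DESeq2). Lama2, the alpha chain of muscle and nerve laminin, went the other way, with 2 UMIs in endothelial-like and 49 in pericyte-like cells (ratio of pericyte to endothelial 64.6, with a 95% counting interval of 17 to 548). It was at 49.2, 74.1 and 29.3 CPM in pericyte-like cells and 159, 139.9 and 217 in fibroblast-like cells, with no overlap between them (edgeR adjusted p = 2.46e-06, and 0.184 without mouse 3).

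The beta chains split between endothelial-like and pericyte-like cells. Lamb1 was at 147, 130.5 and 141 CPM in endothelial-like cells, 22.4, 17.4 and 14 in pericyte-like cells and 75.5, 78.7 and 114 in fibroblast-like cells (log2 fold change 3.11, SE 0.32, edgeR adjusted p = 8.84e-13 for endothelial minus pericyte). Lamb2 was at 37.9, 38.7 and 52.9 CPM in endothelial-like cells, 148, 135 and 141 in pericyte-like cells and 60.4, 21.9 and 98.2 in fibroblast-like cells (log2 fold change -1.65, SE 0.25, edgeR adjusted p = 1.32e-07 for endothelial minus pericyte). Each mouse showed both orders: Lamb1 was higher in the endothelial-like and Lamb2 in the pericyte-like class. Lamc1, the gamma chain common to most laminins, was at 118, 101 and 79 CPM in endothelial-like cells and 58.1, 74.1 and 65.7 in pericyte-like cells, a log2 difference of 0.58 (edgeR adjusted p = 0.193). Nid1 was at 199.7, 174 and 239.6 CPM in endothelial-like cells, 148, 135 and 75.4 in pericyte-like cells and 234, 267 and 458 in fibroblast-like cells. Its difference between endothelial-like and pericyte-like cells (log2 fold change 0.96, SE 0.23, edgeR adjusted p = 0.000997) missed the threshold with DESeq2 (adjusted p = 0.339) and without mouse 3 (edgeR adjusted p = 0.475). Nid2 was at 102, 72.5 and 66.9 CPM in endothelial-like cells and 0, 8.71 and 1.4 in pericyte-like cells, 235 against 3 UMIs (ratio of endothelial to pericyte 29.7, with a 95% counting interval of 10.0 to 145). Nid2 was at 7.55, 13.1 and 32.7 CPM in fibroblast-like cells, below its endothelial-like level in every mouse, where Nid1 was above it.

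**Figure D4:**
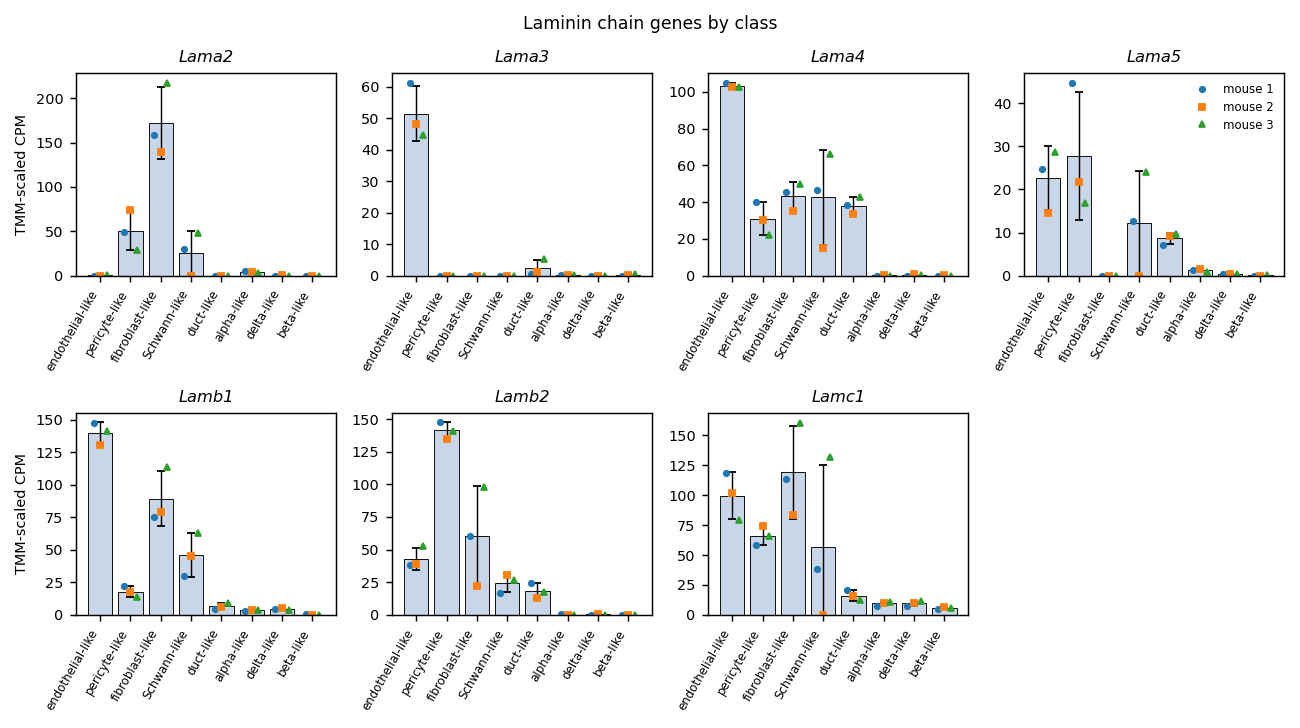
Levels of 7 laminin chain genes (TMM-scaled CPM, linear axes from 0) in the 8 classes; bars are means over 3 mice with SD, and points are mice. Lama3, Lama4 and Lamb1 were highest in endothelial-like cells, Lamb2 in pericyte-like cells and Lama2 in fibroblast-like cells.

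Set against pericyte-like cells, endothelial-like cells were higher for 11 of the 40 genes and lower for 20, where 13.5% of the 11762 genes tested were higher and 11.1% lower, 24.6% in all (median log2 difference -1.65 over the 40 and 0.07 over all genes). The lower genes held the interstitial collagens. Col3a1, a chain of fibrillar collagen III, was at 0, 1.21 and 8.92 CPM in endothelial-like cells and 675, 396 and 251 in pericyte-like cells (log2 fold change -6.77, SE 0.70, edgeR adjusted p = 6.3e-08). Col6a1 had 2 UMIs in endothelial-like cells and 104 in pericyte-like cells (ratio of pericyte to endothelial 137, with a 95% counting interval of 37 to 1147). Col18a1, the basement membrane collagen whose C-terminal fragment is endostatin, was at 16, 9.66 and 15.9 CPM in endothelial-like cells and 237, 91.5 and 58.7 in pericyte-like cells, with no overlap (log2 fold change -2.97, SE 0.56, edgeR adjusted p = 0.000344).

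Pericyte-like cells were higher than endocrine cells for 33 of the 40 genes and lower for 1. Of the 11762 genes tested, 20.5% were higher and 19.4% lower, 39.9% in all. The median log2 difference was 6.81 over the 40 and -0.13 over all genes. Col3a1 led, with 0.229, 0.107 and 0.847 CPM in endocrine cells (log2 fold change 10.00, SE 0.49, edgeR adjusted p = 4.47e-14), and Col5a2, a chain of collagen V, which co-assembles with collagen I in fibrils, was at 165, 69.7 and 44.7 CPM in pericyte-like cells and 0.134, 0 and 0.127 in endocrine cells (log2 fold change 9.35, SE 0.66, edgeR adjusted p = 4.8e-10). Lamb2 was at 0.134, 0.422 and 0.211 CPM in endocrine cells (log2 fold change 8.98, SE 0.31, edgeR adjusted p = 5.06e-37). Col1a1 was at 197, 0 and 4.19 CPM in pericyte-like cells and Col6a3 at 58.1, 0 and 1.4, so that mouse 1 was highest for both. Fibroblast markers were also highest in the pericyte-like cells of mouse 1, at 10.1, 3.37 and 3.9 UMIs per 10000 (7 of 12 detected), and their part in the result was not tested. Without mouse 1, the Col6a3 difference was -1.23, adjusted p = 0.724 (edgeR), in place of 2.33, and that of Col1a1, still called, was 3.55 in place of 7.39.

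Fibroblast-like cells had the highest mean levels of the chains of collagens I, III, V and VI. They were higher than endocrine cells for 34 of the 40 genes and lower for 1. Of the 11762 genes tested, 18.5% were higher and 17% lower, 35.5% in all (median log2 difference 7.98 over the 40 and -0.15 over all genes). Col3a1 was at 5752, 1298 and 3649 CPM in fibroblast-like cells (log2 fold change 12.82, SE 0.47, edgeR adjusted p = 1.34e-16). Col1a1 and Col1a2 encode the chains of collagen I: Col1a1 was at 2574, 476 and 1765 CPM in fibroblast-like cells and 0.231, 0.0616 and 0.298 in endocrine cells (log2 fold change 12.61, SE 0.55, edgeR adjusted p = 1.36e-13). Col1a2 was at 2597, 774 and 2254 CPM in fibroblast-like cells and 2.4, 2.06 and 2.03 in endocrine cells (log2 fold change 10.92, SE 0.37, edgeR adjusted p = 8.01e-16). Mouse 2 was lowest for each of these 3 genes, and its fibroblast-like cells still lay above every endocrine value. Fibroblast-like cells held 88.1% of Col1a1 UMIs, 81.9% of Col3a1 UMIs and 83.9% of Col6a2 UMIs. Of the type VI chains, Col6a1 was at 1064, 232 and 848 CPM, Col6a2 at 762, 175 and 674 and Col6a3 at 369.9, 162 and 410.2 in fibroblast-like cells, and Col6a2 was at 0.134, 0 and 0.119 in endocrine cells (log2 fold change 12.35, SE 0.27, edgeR adjusted p = 8.28e-42). The log2 difference from endocrine cells was 12.09 for Col6a1, 7.02 for Col6a3, 11.67 for Col5a2, 11.27 for Col15a1, 8.89 for Lama2, 9.64 for Nid1 and 9.66 for Sparc, and each passed the test. Fn1 was at 249, 26.2 and 75.8 CPM in fibroblast-like cells, highest in mouse 1 and lowest in mouse 2, and at 0.298, 0.207 and 0.342 in endocrine cells (log2 fold change 8.24, SE 0.72, edgeR adjusted p = 2.4e-09). Without mouse 2, 33 genes were called higher, a count given without the share of all genes called in that fit.

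Pericyte-like cells had lower levels than fibroblast-like cells of interstitial collagens and of some basement membrane genes, such as Col15a1, Lama2, Hspg2 and Nid1. They were higher for 3 of the 40 genes and lower for 21, where 6.84% of the 11762 genes tested were higher and 7.29% lower, 14.1% in all (median log2 difference -2.41 over the 40 and -0.00 over all genes). Without mouse 3, which held most cells of both classes, the counts were 3 higher and 11 lower. Leaving out a mouse changes the calls of all genes, and their share in that fit is not given here. Col1a1 was lower in pericyte-like cells in every mouse (log2 fold change -5.21, SE 0.66, edgeR adjusted p = 8.55e-06, and adjusted p = 0.0507 with DESeq2). Col8a1, a short-chain collagen of vessel walls, had 1 UMI in pericyte-like cells and 110 in fibroblast-like cells (ratio of fibroblast to pericyte 137, with a 95% counting interval of 24 to 5443). Col6a6, a type VI chain, had 1 UMI in pericyte-like and 81 in fibroblast-like cells (ratio 101, with a 95% counting interval of 17.6 to 4021). Both calls were lost without mouse 3 (edgeR adjusted p = 0.243 and 0.206). Col15a1 was at 67.1, 13.1 and 8.38 CPM in pericyte-like cells and 762, 223 and 479 in fibroblast-like cells (log2 fold change -4.42, SE 0.42, edgeR adjusted p = 3.55e-09). Lama5, with 27 UMIs in pericyte-like and 0 in fibroblast-like cells, was at least 7.25-fold higher in pericyte-like cells (edgeR adjusted p = 7.94e-05), and Lamb2 was higher too (log2 fold change 1.03, SE 0.28, edgeR adjusted p = 0.00621). The third gene on that side, Col13a1 (8 UMIs in pericyte-like and 0 in fibroblast-like cells), was at least 2.15-fold higher, but missed the threshold with any 1 mouse left out (edgeR adjusted p = 0.0737, 0.0872 and 0.568). Lamb2 missed the threshold without mouse 2 (edgeR adjusted p = 0.155). Sparc was at 1994, 1690.4 and 1658 CPM in pericyte-like cells and 6431, 1455 and 5648 in fibroblast-like cells, lower in pericyte-like cells of mice 1 and 3 but not of mouse 2. Its call (log2 fold change -1.22, SE 0.41, edgeR adjusted p = 0.0359) was lost without mouse 1 (edgeR adjusted p = 0.149), without mouse 3 (edgeR adjusted p = 0.511) and with DESeq2 (adjusted p = 0.171).

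Schwann cells make their own basement membrane in nerve. Schwann-like cells were higher than endocrine cells for 31 of the 40 genes and lower for 0, where 13.7% of the 11762 genes tested were higher and 12.5% lower, 26.3% in all. At an unadjusted p under 0.05, 0 of the 40 were lower, and DESeq2 also called 0 lower. The median log2 difference was 6.95 over the 40 and -0.31 over all genes. Col28a1, a collagen known from peripheral nerve basement membranes, was at 114, 136 and 258 CPM in Schwann-like cells and 0.914, 0.207 and 0.284 in endocrine cells (log2 fold change 8.79, SE 0.46, edgeR adjusted p = 8.21e-19). Schwann-like cells held 78.2% of its UMIs, and the highest value in another of the 8 classes was 4.83 CPM, in the endothelial-like cells of mouse 2. Col5a2 was at 199, 196 and 454 CPM in Schwann-like cells and 0.134, 0 and 0.127 in endocrine cells (log2 fold change 11.26, SE 0.49, edgeR adjusted p = 4.59e-13). Col14a1, a collagen that binds the surface of fibrils, was at 144, 227 and 270.4 CPM (log2 fold change 10.51, SE 0.71, edgeR adjusted p = 2.81e-10), and Col16a1, a collagen of the same fibril-associated group, at 76.1, 60.5 and 162 CPM (log2 fold change 9.96, SE 0.47, edgeR adjusted p = 4.33e-27). Mouse 3 was highest for all 4 of these genes, and each of the 3 mice lay above every endocrine value. Col8a1 was at 216, 272 and 369.5 CPM in Schwann-like cells, against 309, 8.74 and 115 in fibroblast-like cells, overlapping ranges. Col18a1 was at 110.0, 151 and 358 CPM in Schwann-like cells (log2 fold change 9.08, SE 0.55, edgeR adjusted p = 3.29e-11). Col1a2 was at 195, 257 and 598 CPM in Schwann-like cells. None of the 12 fibroblast markers was detected there, but the cells were clustered and named on these same markers. The source of these Col1a2 transcripts was not tested. Fn1, Lamc3, Lama3, Col13a1, Col4a3 and Col4a5 had 0 UMIs in the 81 Schwann-like cells.

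Duct-like cells had laminin, type IV and fibril-associated collagen chains and almost none of the chains of collagens I, III and V. They were higher than endocrine cells for 22 of the 40 genes and lower for 0, where 31.3% of the 11762 genes tested were higher and 26.1% lower, 57.4% in all (median log2 difference 2.02 over the 40 and 0.04 over all genes). At an unadjusted p under 0.05, 1 of the 40 was lower (Col6a3, named after its value was seen), and DESeq2 called 2 lower. Lama4 was at 38.2, 33.5 and 42.9 CPM in duct-like cells and 0, 0.484 and 0.0618 in endocrine cells (log2 fold change 7.70, SE 0.27, edgeR adjusted p = 6.79e-37), and Col4a5 at 0.164, 0.253 and 0.417 CPM in endocrine cells (log2 fold change 7.02, SE 0.31, edgeR adjusted p = 2.5e-29). Duct-like cells held 41.5% of Lama4 UMIs, more than endothelial-like cells, in which the level was higher. Col18a1 was at 33.7, 39.3 and 52.1 CPM in duct-like cells and 1.19, 0.146 and 0.8 in endocrine cells (log2 fold change 6.71, SE 0.45, edgeR adjusted p = 3.97e-11). Of the chains of epithelial laminin, Lama3 was at 0.449, 1.28 and 5.44 CPM and Lamb3, too low for the test, at 0.899, 2.55 and 8.96. Lamb3 lies on the same strand as an overlapping gene, so its reads may be shared. Mouse 3 was highest for both chains. Col9a3, a fibril-associated chain best known from cartilage, was at 27, 27.5 and 21.4 CPM in duct-like cells and 0.298, 0.283 and 0.286 in endocrine cells (log2 fold change 6.23, SE 0.33, edgeR adjusted p = 4.5e-26), and duct-like cells held 85.9% of its UMIs. Its known partner chain Col9a2 did not follow it, at 1.8, 0.319 and 1.28 CPM in duct-like and 5.24, 4.8 and 3.93 in alpha-like cells. Col27a1 was at 51.2, 50.4 and 49.9 CPM in duct-like cells and 12.8, 11.5 and 13.6 in endocrine cells (log2 fold change 2.15, SE 0.16, edgeR adjusted p = 4.17e-20). Sparc was at 293, 200.2 and 385 CPM (log2 fold change 5.81, SE 0.33, edgeR adjusted p = 1.86e-19), below every endothelial, pericyte, fibroblast and Schwann value. The collagen I, III and V chains had 0 to 3 UMIs each in the 440 duct-like cells. Duct-like cells fell into 2 clusters, one of low median depth, and thinning every cell to 2000 UMIs left 14 of the 40 genes called. Thinning lowers the counts of all genes, and the share of them called in that fit is not given here.

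Among the hormone cells, Col6a3 set beta-like cells apart. Col6a3 (ENSMUSG00000048126, chr1:90765923-90843971, minus strand) encodes the large alpha 3 chain of type VI collagen. It was at 0.403, 0.185 and 0.477 CPM in alpha-like cells, 0.493, 0.645 and 0.755 in delta-like cells and 36.8, 53.3 and 41.5 in beta-like cells, which had 129, 466 and 290 UMIs. Every beta value was over 40 times every alpha or delta value (log2 fold change -6.64, SE 0.48, edgeR adjusted p = 1.42e-11 for alpha minus beta; log2 fold change -5.93, SE 0.53, edgeR adjusted p = 8.56e-10 for delta minus beta). At least 1 UMI was found in 0.793% of alpha-like cells, with a median depth of 21503 UMIs, and in 45.6% of beta-like cells, with 35698, and thinned to 2000 UMIs per cell the shares were 0.0730% and 5.02%. Beta-like cells held 60.3%, 77.8% and 51.9% of all Col6a3 UMIs in kept cells, although the level in fibroblast-like cells was higher. The other chains of the type VI trimer were nearly absent there: beta-like cells had 1 Col6a1 UMI and 0 Col6a2 UMIs beside 885 of Col6a3. In fibroblast-like cells the sums were 686 for Col6a1, 532 for Col6a2 and 324 for Col6a3. Over the 8 class means, r of log2 CPM was 0.99 between Col6a1 and Col6a2 and 0.80 between Col6a1 and Col6a3.

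Type IV collagen showed a similar imbalance. Col4a1 was at 4.43, 4.25 and 5.01 CPM in alpha-like cells, 1.48, 1.61 and 2.01 in delta-like cells and 14.3, 9.96 and 17.7 in beta-like cells, with no overlap (log2 fold change -1.59, SE 0.31, edgeR adjusted p = 2.85e-05 for alpha minus beta; log2 fold change -2.95, SE 0.40, edgeR adjusted p = 8.19e-09 for delta minus beta). Its partner chain Col4a2 had 42 UMIs in alpha-like cells, 6 in delta-like cells and 8 in beta-like cells, beside 129, 24 and 261 of Col4a1. In endothelial-like cells the same pair had 3190 and 5001 UMIs. Alpha-like cells were higher than beta-like cells for 9 of the 40 genes and lower for 2, where 16.7% of the 11762 genes tested were higher and 16.9% lower, 33.6% in all (median log2 difference 0.73 over the 40 and 0.01 over all genes). Delta-like cells were higher for 4 and lower for 3, where 16.1% of the 11762 genes tested were higher and 14.1% lower, 30.3% in all (medians 0.40 and 0.03). Thinned to 2000 UMIs per cell, the counts were 3 in alpha minus beta (Col6a3, Col4a1 and Col1a2) and 2 in delta minus beta (Col6a3 and Col4a1). The shares of the 40 called, 27.5% in alpha minus beta and 17.5% in delta minus beta, were both below those of all genes. Scaling by library size alone, without TMM, moved the median of all genes by 1.21 in delta minus beta and by 0.58 in alpha minus beta, and then 11 higher and 2 lower genes were called in delta minus beta and 13 higher and 2 lower in alpha minus beta. Of all genes called in those 2 comparisons, 97.2% and 89.4% were then higher, against 53.4% and 49.6% with TMM.

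**Figure D5:**
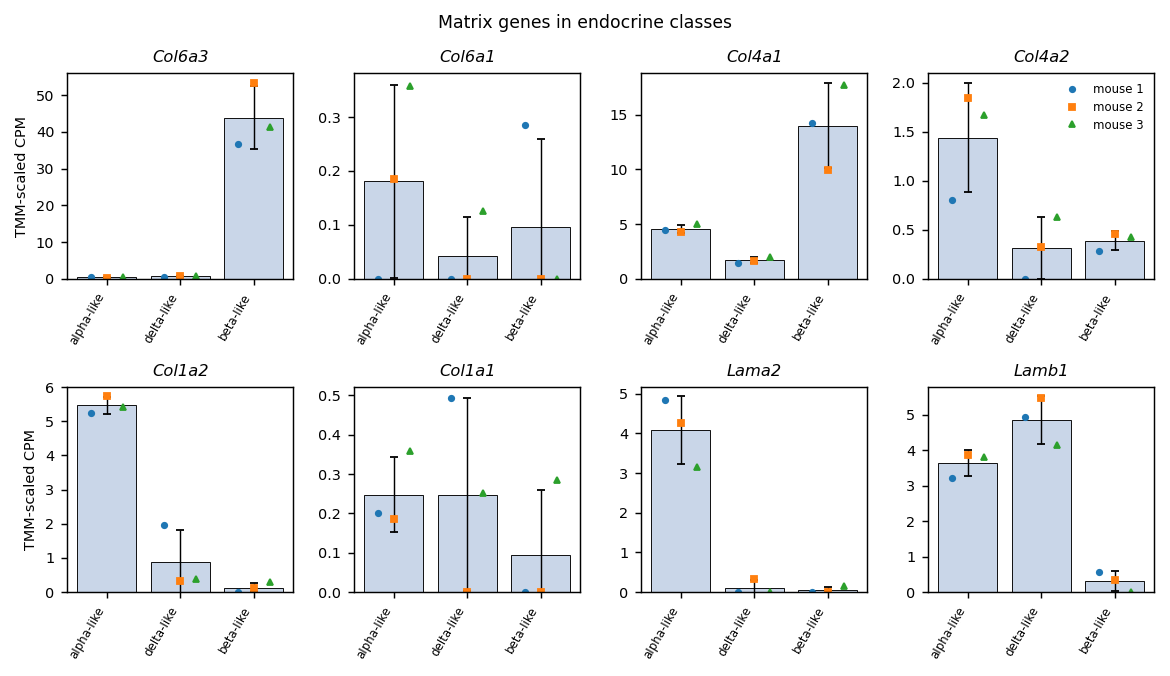
Levels of 8 genes (TMM-scaled CPM, linear axes from 0, each with its own range) in alpha-like, delta-like and beta-like cells; bars are means over 3 mice with SD, and points are mice. Col6a3 and Col4a1 were highest in beta-like cells, Col1a2 and Lama2 in alpha-like cells, and Lamb1 was lowest in beta-like cells.

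Some laminin chains went the other way. Lama3 did not, with 3 UMIs in alpha-like, 0 in delta-like and 5 in beta-like cells. Lamb1 was at 3.22, 3.88 and 3.82 CPM in alpha-like cells, 4.93, 5.48 and 4.15 in delta-like cells and 0.571, 0.343 and 0 in beta-like cells, without overlap (log2 fold change 3.56, SE 0.48, edgeR adjusted p = 4.16e-09 for alpha minus beta; log2 fold change 3.89, SE 0.50, edgeR adjusted p = 1.41e-09 for delta minus beta). Both Lamb1 calls were lost when cells were thinned to 2000 UMIs (edgeR adjusted p = 0.123 and 0.428). Lama2 had 100 UMIs in alpha-like cells and 1 in beta-like cells (ratio 70.8, with a 95% counting interval of 12.4 to 2826), and Lama5 had 31 in alpha-like and 1 in beta-like cells (ratio 22, with a 95% counting interval of 3.66 to 895). Delta-like cells had 1 UMI of Lama2 and 5 of Lama5. Lamc1 was at 7.85, 10.3 and 10.5 CPM in alpha-like cells, 7.88, 9.68 and 11.6 in delta-like cells and 5.14, 6.75 and 5.58 in beta-like cells, without overlap, and missed the threshold (edgeR adjusted p = 0.0531 for alpha minus beta and 0.0579 for delta minus beta). Without mouse 1 it passed in both (0.0296 and 0.0335, edgeR adjusted p). It passed under 11 of 19 alternatives in alpha minus beta and 10 of 19 in delta minus beta.

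Alpha-like cells also had transcripts of Col1a2 with few of Col1a1. Col1a2 (ENSMUSG00000029661, chr6:4504814-4541544, plus strand) had 26, 31 and 91 UMIs in alpha-like cells and 0, 1 and 2 in beta-like cells, a summed ratio of 35, with a 95% counting interval of 11.7 to 171. The call (edgeR adjusted p = 0.000566) was lost among cells with at least 1000 genes (log2 difference 1.49, adjusted p = 0.113, edgeR, in place of 4.63). Col1a1 had 8 UMIs in alpha-like cells, where fibroblast-like cells had 1829 of Col1a2 and 1474 of Col1a1. Gamma-like cells, outside the 8 classes, had 12, 2 and 50 Col1a2 UMIs. Col26a1, too low for the test, had 141 UMIs in alpha-like cells and 0 in beta-like cells and was at least 33.3-fold higher against a floor of 3 counts. Col8a1 had 70 UMIs in alpha-like cells, 34 in delta-like cells and 2 in beta-like cells (ratio of alpha to beta 24.8, with a 95% counting interval of 6.61 to 209; of delta to beta 25, with a 95% counting interval of 6.41 to 215). Both calls were lost without mouse 3 (edgeR adjusted p = 0.141 for alpha minus beta and 0.291 for delta minus beta). In delta-like cells, Col12a1, a fibril-associated collagen, had 14 UMIs against 0 in beta-like cells (at least 6.86-fold higher), Col4a5 had 12 against 1 (ratio 17.6, with a 95% counting interval of 2.61 to 754) and Col18a1 24 against 2 (edgeR adjusted p = 0.0517, over the threshold). Without mouse 3, the Col12a1 and Col4a5 calls were lost (edgeR adjusted p = 0.188 and 0.261), and Col18a1 was called (0.0305), as it was without mouse 1 (0.00261). Col27a1 was at 18.3, 17.6 and 22.4 CPM in alpha-like cells, 9.36, 5.81 and 5.79 in delta-like cells and 10.6, 11.1 and 12.7 in beta-like cells. It was higher in alpha-like than in beta-like cells (log2 fold change 0.77, SE 0.20, edgeR adjusted p = 0.00121). Its lower level in delta-like than in beta-like cells (log2 fold change -0.84, SE 0.25, edgeR adjusted p = 0.00637) was lost without mouse 2 (edgeR adjusted p = 0.0571) or mouse 3 (edgeR adjusted p = 0.266) and became 0.39, adjusted p = 0.186 without TMM.

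The other 11 genes were too low for the test. Col9a2, Col11a2, Col20a1 and Col26a1 had most of their UMIs in hormone cells, and Col25a1 had 62.0% in delta-like cells. Col8a2 had 29 UMIs in alpha-like cells and 0 in beta-like cells. Col20a1 had 9, 0 and 33 UMIs in Schwann-like cells, so that mouse 2 had none, and Col19a1 had 21 of its 23 kept UMIs in pericyte-like cells. Col7a1 and Col23a1 had 9 and 12 UMIs in duct-like cells, and neither passed 14 in any of the 8 classes. Col7a1 had 10, 37 and 2 UMIs in acinar-like cells, outside the 8, and unnamed cells held 44.7% of its UMIs in kept cells. Of classes outside the 8, macrophage-like cells had 7, 40 and 87 UMIs of Col14a1, found in 41.9% of them. Dendritic-like cells had 0, 0 and 88 UMIs of Fn1, all in mouse 3 and in 2.70% of its cells.

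Genes that process, bind and degrade these proteins were read from 4 lists. The list counts stand beside the share of all 11762 genes tested that was called in either direction. It was 56.8% in endothelial minus endocrine, 39.9% in pericyte minus endocrine and 35.5% in fibroblast minus endocrine. In endothelial-like against endocrine cells, the counts of tested genes that passed were 7 higher and 1 lower (median 1.32) of 15 for collagen synthesis and processing, 12 higher and 6 lower (median 1.35) of 22 for matrix receptors, 8 higher and 1 lower (median 2.59) of 13 for matrix turnover and 15 higher and 1 lower (median 3.16) of 25 for other matrix proteins, with median log2 differences in parentheses and -0.06 over all genes. Plod1, a lysyl hydroxylase of collagen, was among the synthesis genes (log2 difference 4.31), with Serpinh1, the collagen chaperone Hsp47 (4.66). The integrin alpha chains Itga1, which pairs with beta 1 to bind collagen, and Itga6, which binds laminin, were higher (9.50 and 4.37). In pericyte-like against endocrine cells the lists gave 10 higher and 1 lower (median 2.02), 14 higher and 1 lower (median 1.95), 11 higher and 0 lower (median 5.55) and 19 higher and 0 lower (median 6.95) in the same order, against -0.13 over all genes. Itga7, a laminin-binding integrin chain of muscle, was higher there (8.80), as was Bgn, the proteoglycan biglycan (10.14). In fibroblast-like against endocrine cells they gave 14 higher and 0 lower (median 5.74), 14 higher and 2 lower (median 2.04), 12 higher and 0 lower (median 5.81) and 24 higher and 0 lower (median 8.67), against -0.15 over all genes. Pcolce, the enhancer of procollagen C-proteinase, was higher (10.69), as were Ddr2, a receptor for fibrillar collagen (9.52), and Mmp2, a gelatinase (12.03).

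Of all 11762 genes tested, 26.3% were called in Schwann minus endocrine, 57.4% in duct minus endocrine and 14.1% in pericyte minus fibroblast. The share was 24.6% in endothelial minus pericyte, 33.6% in alpha minus beta and 30.3% in delta minus beta. Some list counts in duct minus endocrine, alpha minus beta and delta minus beta were near these shares. Schwann-like against endocrine cells gave 10 higher and 0 lower (median 1.78), 14 higher and 0 lower (median 2.35), 11 higher and 0 lower (median 4.93) and 17 higher and 0 lower (median 5.28), against -0.31 over all genes, with the dystroglycan gene Dag1 among the receptors (2.38). Duct-like against endocrine cells gave 6 higher and 3 lower (median 0.94), 17 higher and 0 lower (median 1.78), 8 higher and 1 lower (median 4.17) and 10 higher and 3 lower (median 0.65), against 0.04. Itgb4, whose product binds laminin at hemidesmosomes, was higher in duct-like cells (5.75), and the prolyl hydroxylase subunits P4ha1 and P4ha2 were lower (-1.63 and -1.65). Pericyte-like against fibroblast-like cells gave 0 higher and 11 lower (median -1.70), 4 higher and 1 lower (median 0.00), 1 higher and 6 lower (median -1.17) and 1 higher and 14 lower (median -1.63), against -0.00, with Bcam, a receptor for the Lama5 chain, higher in pericyte-like cells (5.07) and Loxl1, a lysyl oxidase, lower (-5.53). Endothelial-like against pericyte-like cells gave 1 higher and 6 lower (median -0.12), 4 higher and 10 lower (median -0.88), 2 higher and 7 lower (median -2.46) and 6 higher and 12 lower (median -1.72), against 0.07. Alpha-like against beta-like cells gave 3 higher and 3 lower (median 0.24), 3 higher and 7 lower (median -0.23), 5 higher and 0 lower (median 1.11) and 1 higher and 6 lower (median 0.00), against 0.01. Loxl2, a lysyl oxidase that cross-links type IV collagen, was lower in alpha-like and in delta-like than in beta-like cells (-3.84 and -4.38). Delta-like against beta-like cells gave 3 higher and 5 lower (median 0.34), 9 higher and 3 lower (median 0.21), 3 higher and 0 lower (median 0.17) and 4 higher and 4 lower (median 0.08), against 0.03. With fitted differences in place of bounds, other matrix proteins had a median of 0.94 in delta minus beta and 0.13 in duct minus endocrine. The other list medians moved by less. Without TMM, the split moved by over 10 percentage points for some lists. The split of all genes moved too. Of all genes called without TMM, 89.4% were higher in alpha minus beta, 97.2% in delta minus beta and 88.4% in duct minus endocrine. The share was 79.1% in endothelial minus endocrine and 58.5% in pericyte minus fibroblast. In alpha minus beta, collagen synthesis then gave 4 higher and 2 lower, receptors 7 and 6, and other matrix proteins 3 and 6. In delta minus beta, collagen synthesis gave 9 higher and 2 lower and other matrix proteins 7 and 2. In duct minus endocrine, collagen synthesis gave 9 higher and 2 lower and other matrix proteins 11 and 1. In endothelial minus endocrine, collagen synthesis and turnover gave 9 higher and 0 lower each, and in pericyte minus fibroblast the receptors gave 4 higher and 0 lower.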

How the data were processed

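The deposited matrices hold counts, as whole UMIs per gene and barcode from a 3′ v2 library, per the labels. The submitters' processing notes name Cell Ranger 2.2 and the genome build mm10, the matrix headers give software version 3.1.0, and how barcodes were selected is not given in the sources used here. No data column was left out (0).

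Kept barcodes had 500 or more genes and no more than 15% of UMIs from mitochondrial genes, and the highest Scrublet scores (scanpy 1.11.5, 0.8% per 1000 barcodes) were removed: 55, 96 and 166. Cells were clustered on 153 markers of 17 types, holding no gene followed here (20 components, 20 neighbours, Leiden resolution 1, leidenalg 0.10.2). A cluster was named when at least 3 markers of 1 type were among its 30 leading genes, at least 1 among the top 10. UMIs were summed per mouse and class (at least 5 cells) and fitted in 1 model with edgeR 4.0.16 (TMM, filterByExpr, robust quasi-likelihood, mouse as a block, FDR 0.05); intervals of ratios and floors (95%) cover counting error only. Classes of 1 mouse share an animal and a library: over 1976 genes, deviations correlated by a median of 0.257 within and -0.117 between mice. On simulated counts of 11762 genes for endothelial minus endocrine, 46% of 2-fold and 87% of 4-fold changes were recovered, and 1.15% of unchanged genes were called.

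Genes were named with values if among the 3 highest of a class, among the 3 largest calls per direction with the same sign in every mouse and at least 20 CPM, or on a list of 19 basement membrane and collagen genes. The counts include 1 gene that is not reported here. The genes, the lists and this rule were chosen with earlier results of these data known. Nothing says that the mice were handled on separate days. With mouse as a block, p-values measure how much class differences vary among these 3 animals. That spread was estimated in 1 fit over all fitted classes. Positions are GENCODE M21 (GRCm38), promoter windows RefSeq GRCm38.p6; no protein sequence was used here. Counting by strand is not given in the sources used here, and 14 of the 51 genes overlap a gene on the other strand.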

Additional observations from a re-analysis of the deposited data

How the results depend on the processing

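Among 90 gene-by-comparison results, 1463 of 1559 values obtained under the alternatives kept their direction and their side of the threshold. A further 57 fell to the other side with the same direction (in 23 results), 37 came to pass it (in 4 results) and 2 reversed. Removing the mouse block, so that the 3 libraries were no longer paired, left 24 genes called between pericyte-like and fibroblast-like cells, 11 between alpha-like and beta-like cells and 7 between delta-like and beta-like cells. Without the block the edgeR adjusted p was 0.101 for Sparc between pericyte-like and fibroblast-like cells, 0.0582 for Col12a1 and 0.0268 for Col18a1 between delta-like and beta-like cells. Leaving out 1 mouse at a time gave 14 to 27 called genes between pericyte-like and fibroblast-like cells and 4 to 9 between delta-like and beta-like cells. With cells thinned to 2000 UMIs the counts were 14 for duct against endocrine cells, 3 for alpha against beta and 2 for delta against beta. The delta-beta count was 12 with no filter on low counts, 4 with the 2000 most variable genes and 13 without TMM scaling. These counts of called genes are given without the share of all genes called in each fit. Fewer mice or UMIs change the calls of all genes, so the counts do not single out the genes followed here. The summed shares of UMIs in thinned cells were 50.7% endothelial, 10.4% pericyte, 4.36% duct, 1.30% alpha, 0.795% delta and 0.873% beta. Without Sparc they were 35.3% endothelial, 4.80% alpha and 1.48% delta, with free RNA subtracted 2.50% alpha and 0.802% delta, and with the 2000 most variable genes 1.32% delta. Col6a3 reversed between pericyte-like and endocrine cells without mouse 1 (log2 -1.23, up to 3.76 without another mouse), and Col27a1 between delta-like and beta-like cells without TMM (0.39). The cause of these differences was not tested. The fits without TMM and the shares without Sparc were chosen after the data had been seen. Schwann-like cells could not be fitted with at least 1000 genes per cell or at most 10% mitochondrial UMIs, nor the fibroblast, pericyte and Schwann comparisons with at least 20 cells a mouse. Depth limits what can be said of genes with few UMIs in the small classes.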
